A study of Gallus gallus with 48 samples.

Results

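The livers of 12-week-old chickens were compared with those of 10-week-old chickens on a panel of 20 genes of lipid metabolism and growth. The samples were taken by their titles, which give the week of age, and make up 24 of the 48 samples of the series, 12 at each age. All 20 panel genes were examined. At 12 weeks the birds were male Beijing-You chickens, an indigenous breed, and 6 liver RNA samples carried the dye Cy3 and 6 carried Cy5. At 10 weeks they were males of the same breed, again with 6 Cy3 and 6 Cy5 samples. The labels give no treatment, no transgene and no diet at either age. Total RNA of liver tissue was used, and the submitters list the samples of both ages as biological replicates. Each labelled sample was hybridised alone to 1 of 48 copies of an oligonucleotide sub-array on a slide, so a sample has signal of its own RNA in 1 colour only.

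In birds the liver, rather than adipose tissue, is the main site of fatty acid synthesis. Glycolysis delivers carbon through pyruvate kinase, acetyl-CoA carboxylase and fatty acid synthase build the fatty acid chain, and Spot14 proteins respond to thyroid hormone and accompany lipogenesis. The product leaves the liver in lipoproteins that carry Apo-B and is taken up elsewhere through lipoprotein lipase. The liver is also the main target of growth hormone, whose receptor drives the release of IGF-1 into the blood. The comparison asks which of these genes differ in level between both ages.

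None of the 20 genes passed the test at an adjusted p of 0.05, which is 0.0% of the panel (limma, age and dye as terms, Benjamini-Hochberg over 20 genes). An unadjusted p under 0.05 was found for 3 genes, or 15%: GHR, the growth hormone receptor, and Spot14a, with higher means at 12 weeks, and G-S-T, with a lower mean at 12 weeks. All members are the whole panel, so these shares are also the background. Of the 20 differences, 11 were above 0 and 9 below, and their median was 0.07 on the log2 scale. The standard errors lay between 0.31 and 0.58, with a median of 0.38. Unless stated otherwise, a level is a log2 intensity from which the panel median of the same sample was subtracted, and a difference is 12 minus 10 weeks on that scale. Precision is limited by the 12 samples per age, and p-values set a difference against the spread between these samples. In limma the variance of each gene was moderated over the 20 genes.

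**Figure D1:**
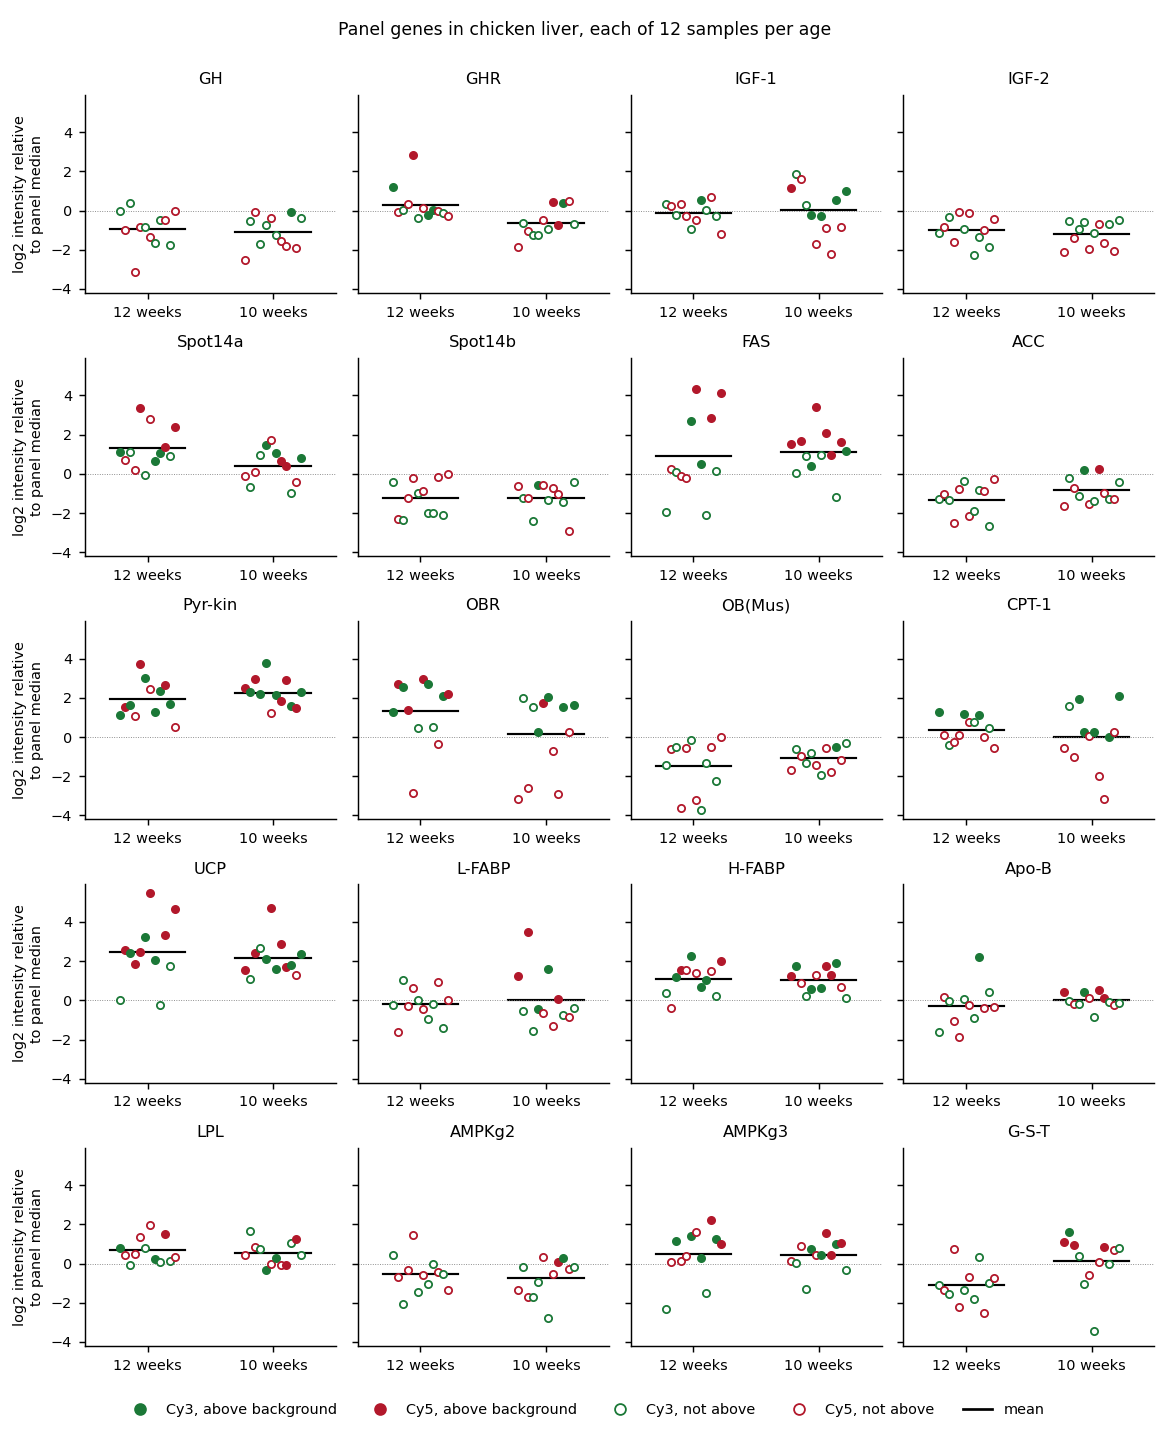
Level of each panel gene (vertical axis, log2 intensity minus the panel median of that sample) in the 12 samples of 12 weeks, at the left of each panel, and the 12 samples of 10 weeks, at the right. Green points carry Cy3 and red points Cy5, filled points were above background and open points were not, and the line is the mean. The samples of both ages overlap for all 20 genes.

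Signals were weak at both ages, and this bears on every value below. A gene counted as above background when its spots exceeded the local background by 2 SD on average. A sample had 3 to 10 genes above background at 12 weeks, with a median of 5.5, against 2 to 14 at 10 weeks, with a median of 7.5 (permutation test, two-sided, p = 0.107, adjusted p = 0.268 over 5 measures). The median background-subtracted intensity of the panel averaged 925 ± 624 at 12 weeks and 1524 ± 1002 at 10 weeks (n = 12 each, mean ± SD, permutation p = 0.0948, adjusted p = 0.268). The local background averaged 4814 ± 1955 at 12 weeks and 4343 ± 1779 at 10 weeks (n = 12 each, mean ± SD, permutation p = 0.544, adjusted p = 0.681). The sample median that serves as the zero of the scale is thus itself mostly a background-level value. The negative control probe from corn was above background in 0 samples of 12 weeks and 1 of 10 weeks, and the Blank in 0 at both ages. In tissue RNA, fewer cells of a type and less RNA per cell cannot be told apart.

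**Figure D2:**
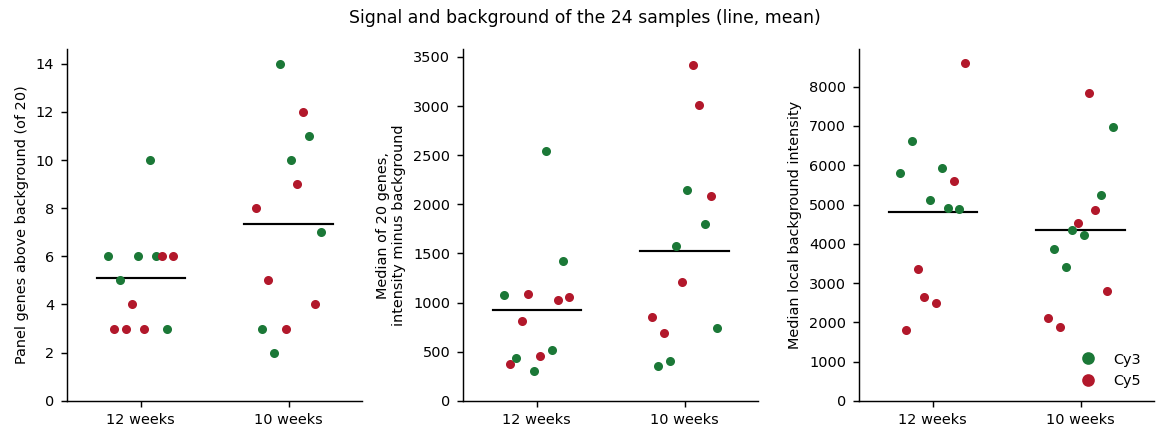
Each point is 1 sample, green for Cy3 and red for Cy5, with 12 weeks at the left and 10 weeks at the right, and the line is the mean. The panels give the number of panel genes above background, the median background-subtracted intensity of the 20 genes, and the median local background, both in scanner units. The 12-week samples held 3 to 10 genes above background, against 2 to 14 in the 10-week samples.

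The growth hormone and IGF axis has 4 members on the panel, of which 0 passed the test. The background-subtracted intensity of GHR had its lowest value at 92, its median at 913 and its highest at 7945.5 in the 12-week samples, against -209, 775.5 and 4590 in the 10-week samples. On the relative scale GHR was lowest at -0.38, with a median of -0.00 and a highest of 2.84 at 12 weeks, against -1.86, -0.72 and 0.50 at 10 weeks. All 12 samples of 12 weeks lay over the 10-week median, and 9 of the 12 samples of 10 weeks lay under the lowest 12-week sample. The means were 0.29 ± 0.90 at 12 weeks and -0.63 ± 0.74 at 10 weeks (n = 12 each, mean ± SD), a difference of 0.91 ± 0.36 (SE, limma p = 0.0146, adjusted p = 0.146). Only 4 samples of 12 weeks and 3 of 10 weeks had GHR above background, so most of these values are near background. Read against the corn and Blank probes of the same sub-array, it exceeded both in 11 of 12 samples of 12 weeks and 6 of 12 of 10 weeks (Fisher's exact test, two-sided, p = 0.0686, adjusted p = 1). In the channel without the label, which held no labelled RNA, GHR averaged -0.29 ± 0.32 at 12 weeks and -0.65 ± 0.56 at 10 weeks (n = 12 each, mean ± SD), a difference of 0.36 ± 0.20 (SE, limma p = 0.0830, adjusted p = 0.953).

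IGF-1, the growth factor that the liver secretes, averaged -0.11 ± 0.58 at 12 weeks and 0.03 ± 1.28 at 10 weeks (n = 12 each, mean ± SD), a difference of -0.13 ± 0.39 (SE). It was above background in 1 sample of 12 weeks and 5 of 10 weeks. IGF-2, the second insulin-like growth factor, reached the threshold over background in 0 samples of 12 weeks and 0 of 10 weeks. GH, the hormone itself and a pituitary product, was above background in 0 samples of 12 weeks and 1 of 10 weeks, so no difference is given for these 2 genes. Their limma adjusted p was 0.844 each.

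Among the 5 genes of fatty acid synthesis, 0 passed the test. Spot14a had a background-subtracted intensity of 279 at its lowest, 2646.5 at its median and 11249 at its highest in the 12-week samples, against 126, 1688.75 and 5223.5 in the 10-week samples. Its relative level was lowest at -0.04, with a median of 1.08 and a highest of 3.35 at 12 weeks, against -0.98, 0.52 and 1.73 at 10 weeks. Of the 12-week samples, 10 of 12 lay over the 10-week median and 3 over the highest 10-week sample. The means were 1.30 ± 1.02 at 12 weeks and 0.41 ± 0.86 at 10 weeks (n = 12 each, mean ± SD), a difference of 0.89 ± 0.38 (SE, limma p = 0.0261, adjusted p = 0.174). Spot14a was above background in 6 samples of 12 weeks and 5 of 10 weeks, and in 0 samples of either age without the label. Spot14b, the paralogue, was above background in 0 samples of 12 weeks and 1 of 10 weeks. Its means were -1.22 ± 0.90 at 12 weeks and -1.21 ± 0.76 at 10 weeks (n = 12 each, mean ± SD).

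FAS, read here as fatty acid synthase because of the panel it stands in, was spread widely at 12 weeks. Its relative level ran from -2.10 to 4.33 with a median of 0.19 at 12 weeks, against -1.18 to 3.42 with a median of 1.07 at 10 weeks. The means were 0.89 ± 2.14 at 12 weeks and 1.13 ± 1.13 at 10 weeks (n = 12 each, mean ± SD), a difference of -0.24 ± 0.53 (SE, limma adjusted p = 0.844). FAS was above background in 5 samples of 12 weeks and 8 of 10 weeks, and it was brighter with Cy5 than with Cy3 at both ages. With Cy5 the means were 1.87 ± 2.14 at 12 weeks and 1.88 ± 0.83 at 10 weeks, and with Cy3 -0.10 ± 1.77 at 12 weeks and 0.38 ± 0.87 at 10 weeks (n = 6 each, mean ± SD).

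Pyr-kin, pyruvate kinase of glycolysis, was the gene most often above background, in 9 samples of 12 weeks and 11 of 10 weeks. Its relative level averaged 1.92 ± 0.93 at 12 weeks and 2.27 ± 0.72 at 10 weeks (n = 12 each, mean ± SD), a difference of -0.35 ± 0.36 (SE, limma adjusted p = 0.844). Without the label it was above background in 4 samples of 12 weeks and 3 of 10 weeks. ACC, acetyl-CoA carboxylase, had the fifth smallest p of the panel. Its intensity had its lowest value at -493, its median at 139.75 and its highest at 697.5 in the 12-week samples, against 159, 414.5 and 3978.5 in the 10-week samples. ACC was above background in 0 samples of 12 weeks and 2 of 10 weeks, so no fold is given. Its relative means were -1.34 ± 0.80 at 12 weeks and -0.85 ± 0.66 at 10 weeks (n = 12 each, mean ± SD, limma p = 0.157, adjusted p = 0.627), and 4 samples of 12 weeks lay under the lowest 10-week sample.

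OBR, the leptin receptor, had the largest difference among the genes above background at both ages, and it did not pass the test. Its background-subtracted intensity was 237.5 at its lowest, 3609.25 at its median and 16644 at its highest in the 12-week samples, against -637, 1870.25 and 9928 in the 10-week samples. The relative level was lowest at -2.84, with a median of 1.75 and a highest of 2.95 at 12 weeks, against -3.17, 0.88 and 2.03 at 10 weeks. The ages overlapped, although 6 samples of 12 weeks lay over the highest 10-week sample. The means were 1.31 ± 1.67 at 12 weeks and 0.13 ± 2.00 at 10 weeks (n = 12 each, mean ± SD), a difference of 1.17 ± 0.58 (SE, limma p = 0.0511, adjusted p = 0.256). OBR was above background in 8 samples of 12 weeks and 5 of 10 weeks, and without the label in 6 samples of each age. The unlabelled channel gave OBR levels of 1.54 ± 0.98 at 12 weeks and 1.41 ± 0.83 at 10 weeks (n = 12 each, mean ± SD, limma adjusted p = 0.953). At 10 weeks the unlabelled count of 6 was above the labelled count of 5, so no age difference in RNA is read from OBR. The OBR values here and below are those of the signal. How far the OBR signal follows liver RNA was not tested. The mouse leptin probe OB(Mus) was above background in 0 samples of 12 weeks and 1 of 10 weeks.

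The genes of fatty acid oxidation and mitochondria were CPT-1, which brings long-chain fatty acids into mitochondria, and UCP, a mitochondrial uncoupling protein, and 0 of 2 passed the test. UCP had the highest single intensity of the panel, with a maximum of 52008.5 and a median of 6399.75 at 12 weeks, against 38305 and 5083.5 at 10 weeks. In the brightest sample of 12 weeks up to 94% of the pixels of a UCP spot were saturated, so that value is a lower limit. UCP averaged 2.45 ± 1.64 at 12 weeks and 2.18 ± 0.96 at 10 weeks (n = 12 each, mean ± SD), a difference of 0.27 ± 0.46 (SE, limma adjusted p = 0.844). It was above background in 9 samples of each age. CPT-1 averaged 0.38 ± 0.64 at 12 weeks and -0.02 ± 1.54 at 10 weeks (n = 12 each, mean ± SD), a difference of 0.40 ± 0.38 (SE, limma adjusted p = 0.844). It was above background in 3 samples of 12 weeks and 5 of 10 weeks with the label, all of them Cy3, and in 5 of 12 weeks and 6 of 10 weeks without the label. The unlabelled count was thus at or above the labelled one, and no age difference is read from CPT-1.

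Fatty acid binding proteins and lipoprotein genes were read as a check of the tissue. L-FABP, the liver fatty acid binding protein, was above background in 0 samples of 12 weeks and 5 of 10 weeks (Fisher's exact test, two-sided, p = 0.0373, adjusted p = 0.745). The order was opposite against the corn and Blank probes, which L-FABP exceeded in 11 of 12 samples of 12 weeks and 9 of 12 of 10 weeks (Fisher's exact test, p = 0.590, adjusted p = 1). Apo-B, the apolipoprotein of liver-made lipoproteins, was above background in 1 sample of 12 weeks and 4 of 10 weeks, and averaged -0.30 ± 1.06 at 12 weeks and -0.01 ± 0.38 at 10 weeks (n = 12 each, mean ± SD). H-FABP, named for heart and typical of muscle, was above background in 6 samples of 12 weeks and 7 of 10 weeks, and without the label in 3 of 12 weeks and 2 of 10 weeks. By the 2 SD threshold the hepatocyte markers of the panel were therefore not above background in most samples of either age. They exceeded the corn and Blank probes in most samples, Apo-B in 9 samples of 12 weeks and 11 samples of 10 weeks. H-FABP did so in 12 samples of 12 weeks and 11 samples of 10 weeks. On that reading a sample had 16.25 ± 3.08 of the 20 panel genes at 12 weeks and 16 ± 3.46 at 10 weeks (n = 12 each, mean ± SD). GH, a pituitary product, was over both probes in 8 samples of 12 weeks and 9 of 10 weeks. The markers are thus not set apart from the panel by these counts. How far these counts follow liver RNA was not tested. H-FABP averaged 1.11 ± 0.77 at 12 weeks and 1.03 ± 0.60 at 10 weeks (n = 12 each, mean ± SD), a difference of 0.08 ± 0.32 (SE). LPL, lipoprotein lipase, averaged 0.67 ± 0.64 at 12 weeks and 0.52 ± 0.61 at 10 weeks (n = 12 each, mean ± SD), a difference of 0.15 ± 0.31 (SE), the gene with the smallest standard error. Of these 4 genes 0 passed limma, with adjusted p between 0.844 and 0.887.

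The panel also holds AMPKg2 and AMPKg3, the gamma subunits of the energy sensor AMP-activated kinase. AMPKg3 was above background in 6 samples of each age and averaged 0.48 ± 1.31 at 12 weeks and 0.42 ± 0.74 at 10 weeks (n = 12 each, mean ± SD), a difference of 0.05 ± 0.40 (SE, limma adjusted p = 0.941). AMPKg2 was above background in 0 samples of 12 weeks and 2 of 10 weeks, so no difference is given. Its means were -0.55 ± 0.92 at 12 weeks and -0.74 ± 0.96 at 10 weeks (n = 12 each, mean ± SD). By contrast, it was lower at 12 weeks on each of the 4 slides, inferred from scan times, that held both ages. Most of these values are near background, so no difference is read from them. Of the panel genes only AMPKg2 and G-S-T kept the same sign on all 4 slides.

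G-S-T, read as glutathione S-transferase, an enzyme of detoxification, had the smallest p of the panel. Its background-subtracted intensity had its lowest value at -1024, its median at 358.75 and its highest at 1826.5 in the 12-week samples, against -466, 1495 and 5572.5 in the 10-week samples. The relative level was lowest at -2.54, with a median of -1.21 and a highest of 0.76 at 12 weeks, against -3.43, 0.52 and 1.63 at 10 weeks. Only 1 of the 12 samples of 12 weeks lay over the 10-week median, and the 10-week samples spanned the whole 12-week range. G-S-T averaged -1.10 ± 0.95 at 12 weeks and 0.11 ± 1.34 at 10 weeks (n = 12 each, mean ± SD, limma p = 0.00983, adjusted p = 0.146). It was above background in 0 samples of 12 weeks and 4 of 10 weeks, and without the label in 0 of 12 weeks and 2 of 10 weeks. Both of the latter, samples 1 and 3, were among the 4 with the label. Their background-subtracted intensity was 1987 with the label and 1052.5 without it in sample 1, and 994 and 874.5 in sample 3. How far the G-S-T signal follows liver RNA was not tested. A bound on the fold, taken against the dimmest signal well above background, was under 1, so no fold is given. Without sample 7 of 10 weeks, whose G-S-T level was -3.43, the adjusted p of limma was 0.00582, and G-S-T was then the 1 gene past the threshold.

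**Figure D3:**
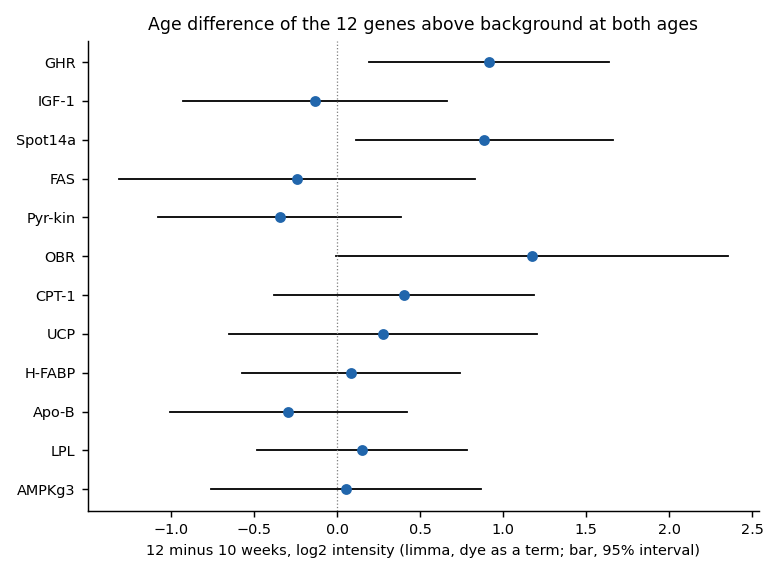
Difference between 12 and 10 weeks (horizontal axis, log2 intensity, 12 minus 10 weeks, from limma with dye as a term) for the 12 genes that were above background in at least 1 sample of each age, with bars for the 95% confidence interval. The intervals of GHR and Spot14a lie above 0 before adjustment, that of OBR reaches from -0.01 to 2.35, and 0 genes passed after adjustment.

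For the 12 genes that were above background in at least 1 sample of each age, an interval of the difference is given. The 95% interval lay inside -1 to 1, a 2-fold difference either way, for 4 of these 12 genes. They were IGF-1, with an interval from -0.93 to 0.66, LPL, from -0.48 to 0.78, H-FABP, from -0.57 to 0.74, and AMPKg3, from -0.76 to 0.87. IGF-1 was above background in 1 sample of 12 weeks and 5 of 10 weeks, and LPL in 3 and 4, so most of their values are near background. The lowest difference over the other settings tried was -1.26 for IGF-1, -1.10 for LPL and -1.37 for AMPKg3, outside that range. These came from the authors' uncentred values, in which the median gene differed by -0.94, so they are not particular to these genes. For H-FABP the lowest difference was -0.76, inside the range. The interval was 0.19 to 1.64 for GHR, 0.11 to 1.66 for Spot14a and -1.31 to 0.83 for FAS. Without background correction, which narrows the scale, the differences were 0.25 for GHR (limma p = 0.165), 0.24 for Spot14a (p = 0.128) and 0.52 for OBR (p = 0.0256). With plain subtraction of the background they were 1.32, 1.23 and 1.82. All 12 genes changed sign under at least 1 of the other settings tried, GHR, Spot14a and OBR under the authors' uncentred values alone, and IGF-1, H-FABP and AMPKg3 also with 1 sample left out. A missed threshold therefore does not show that the ages were alike.

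Counting samples above background gave a reading that uses only whether a probe passed the threshold, which dim probes close to it still decide. Across the panel 3 genes were above background in more samples of 12 weeks, GHR, Spot14a and OBR, and 14 in more samples of 10 weeks, with 3 equal. None passed Fisher's exact test after adjustment (0.0%), and 1 gene, L-FABP, had an unadjusted p under 0.05 (5.0%). This tilt depended on the threshold. Read against the corn and Blank probes, 8 genes were over both in more samples of 12 weeks and 7 in more samples of 10 weeks, with 5 equal. On that reading a sample had 16.25 ± 3.08 genes at 12 weeks and 16 ± 3.46 at 10 weeks (n = 12 each, mean ± SD, permutation p = 0.903, adjusted p = 0.903). The 12-week samples also had fewer genes above background and a lower panel median in these data, as given above, and the part of this in the counts was not tested.

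**Figure D4:**
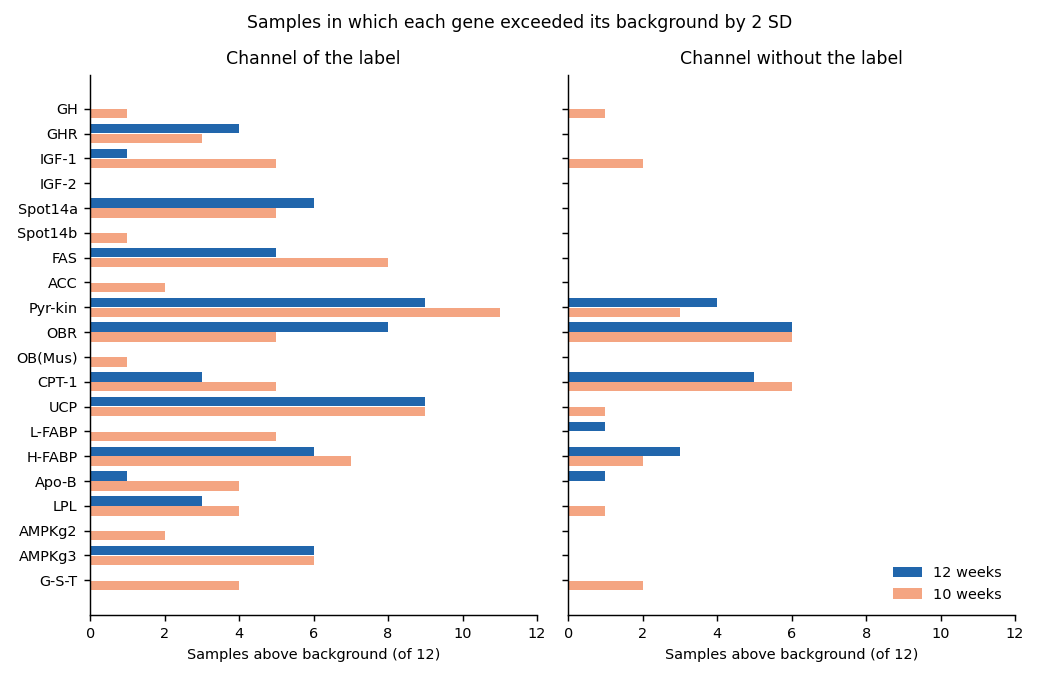
Number of samples (horizontal axis, of 12 per age) in which each gene exceeded its local background by 2 SD, at 12 weeks in blue and at 10 weeks in orange. The left panel shows the channel of the label and the right panel the channel without it, where OBR was counted in 6 samples of each age and CPT-1 in 5 of 12 weeks and 6 of 10 weeks.

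The dye was then taken apart. The interaction of age with dye passed for 0 of 20 genes (0.0%), and 1 gene, IGF-2, had an unadjusted p under 0.05 (5.0%, limma p = 0.00998, adjusted p = 0.200), and its signal exceeded the background in 0 of the 24 samples. GHR had a difference of 0.82 among Cy3 samples and 1.01 among Cy5 samples. For Spot14a it was 0.37 among Cy3 samples and 1.40 among Cy5 samples (interaction in limma, p = 0.175, adjusted p = 0.520). For OBR it was 0.11 among Cy3 samples and 2.24 among Cy5 samples (p = 0.0717, adjusted p = 0.478). OBR was at 1.01 ± 2.22 at 12 weeks and -1.23 ± 1.99 at 10 weeks with Cy5, against 1.60 ± 0.99 at 12 weeks and 1.49 ± 0.65 at 10 weeks with Cy3 (n = 6 each, mean ± SD).

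Slides offered a second split. Slides were not named, so samples with the same scan time in their file headers were taken to share 1 slide. Read so, the 24 samples lay on 10 slides, of which 4 held both ages, 5 held 12 weeks and 1 held 10 weeks. On each of these 4 slides samples of 1 dye were present at both ages, with 1 to 3 samples per age. GHR had within-slide differences of -0.43, -0.58, 0.57 and 0.47, so its sign was split over slides. Spot14a had 1.97, 1.13, -0.17 and 0.55, and OBR had -0.20, 2.43, -1.31 and 2.80. G-S-T was lower at 12 weeks on 4 of 4 slides, with differences from -2.35 to -0.05 and no 12-week sample above background. Of the panel genes only G-S-T and AMPKg2 kept the same sign on all 4 slides. Whether that is more than 4 slides give without an age difference was not tested. With slide as a block, which rests on 15 samples of slides with both ages, the difference of GHR was 0.45 (limma p = 0.298), that of Spot14a 0.66 (p = 0.163) and that of OBR 1.51 (p = 0.0289), and 0 genes passed. The value of GHR is thus smaller by over 1.5 times within slides than over all 24 samples, but its SE within slides was 0.42. With slide as a random block, GHR was at 0.87 ± 0.36 (SE, limma p = 0.0194, adjusted p = 0.168). The correlation within slides in that fit was 0.08. Whether the GHR value within slides differs from that over all samples was not tested. For G-S-T the fit with slide as a block gave a limma p of 0.0585 and an adjusted p of 0.585.

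**Figure D5:**
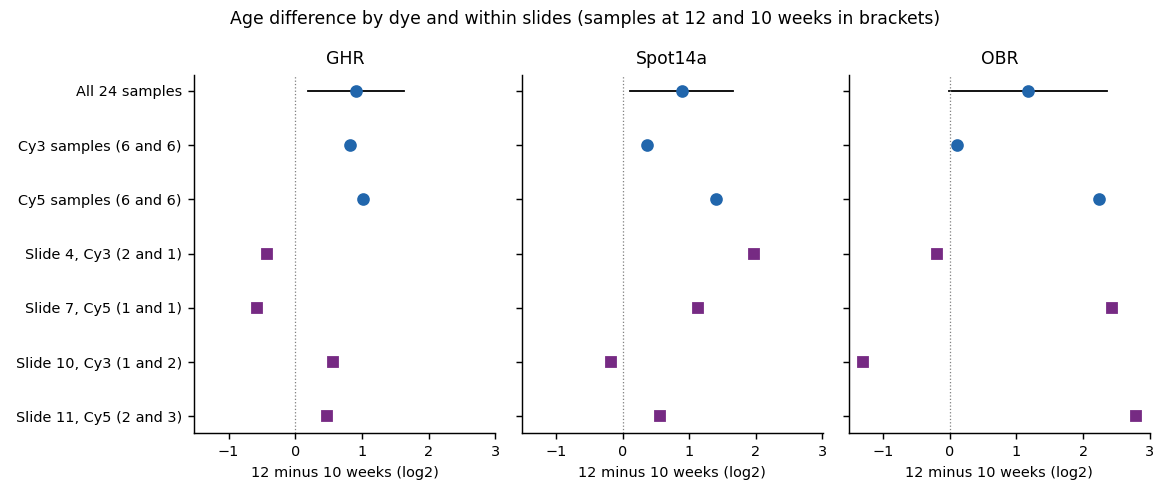
Difference between 12 and 10 weeks (horizontal axis, log2 intensity) of GHR, Spot14a and OBR over all 24 samples with its 95% interval, within each dye, and within slides between samples of 1 dye, with the number of samples at 12 and 10 weeks in brackets. Slides were inferred from shared scan times. GHR lies above 0 with both dyes and on 2 of 4 slides, and OBR lies at 0.11 among Cy3 samples and 2.24 among Cy5 samples.

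Beta-actin and Gapdh, the housekeeping controls, had 5 probes each. Averaged over its probes, beta-actin stood at 0.20 ± 1.15 at 12 weeks and -0.08 ± 0.68 at 10 weeks (n = 12 each, mean ± SD), a difference of 0.28 ± 0.36 (SE, limma adjusted p = 0.671). Gapdh, averaged likewise, stood at 0.32 ± 0.78 at 12 weeks and 0.48 ± 0.92 at 10 weeks (n = 12 each, mean ± SD), a difference of -0.16 ± 0.36 (SE, limma adjusted p = 0.671). Both genes got the same SE from limma, which is thus not the precision of either gene alone. Of the 2 genes 0 passed (0.0%). Of the 10 single probes 0 passed, and 1, the fourth beta-actin probe, had an unadjusted p under 0.05 (10.0%, difference 1.72 ± 0.78, SE, adjusted p = 0.371). Probes of 1 gene thus disagreed, with differences from -0.96 to 1.72 within beta-actin. Centring on these probes in place of the panel median left GHR at 0.85, Spot14a at 0.82 and OBR at 1.11.

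In the channel without the label, the limma fit over the 20 genes called 0 genes (0.0%), and 0 genes had an unadjusted p under 0.05.

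Spread between samples was compared as well. None of the 20 genes passed a Brown-Forsythe permutation test after adjustment (0.0%), and 3 had an unadjusted p under 0.05 (15%). After removal of the dye means, FAS had an SD of 1.88 at 12 weeks and 0.82 at 10 weeks (permutation p = 0.00871, adjusted p = 0.154). CPT-1 had 0.64 at 12 weeks and 1.15 at 10 weeks (permutation p = 0.0382, adjusted p = 0.240), and OB(Mus), rarely above background, had 1.38 at 12 weeks and 0.53 at 10 weeks (permutation p = 0.0154, adjusted p = 0.154). The genes depended on the background method. With plain subtraction the permutation p was 0.259 for CPT-1 and 0.274 for OB(Mus). Those under 0.05 were then FAS (permutation p = 0.00799), AMPKg3 (p = 0.0160) and Apo-B (p = 0.0282).

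The authors' deposited table of log2 values was set beside the scanner values. It gave GHR a value in 11 samples of 12 weeks and 6 of 10 weeks, with means of 8.66 at 12 weeks and 9.49 at 10 weeks. In that table Spot14a had means of 9.89 at 12 weeks and 10.25 at 10 weeks, over 12 and 10 samples. OBR had 10.24 at 12 weeks and 10.52 at 10 weeks, over 11 and 8 samples. These means leave out missing values, which were more frequent at 10 weeks for each of these genes. Of the 132 missing panel values, 81 were not over the corn and Blank probes. The direction of GHR, Spot14a and OBR is thus opposite in the authors' deposited table before centring, where the median gene differed by -0.94. The part of the missing values in this was not tested. After each sample of the authors' deposited table was centred on its panel median, the differences were 0.36 for GHR, 0.82 for Spot14a and 0.77 for OBR, with 0 genes past the threshold in limma.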

How the data were processed

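The deposited scanner files give, per the file headers, the intensity of 64 spots at 532 nm (Cy3) and 635 nm (Cy5) from GenePix Pro 6.0.0.45, with the local background and the percent of saturated pixels, and no normalization. A sample's channel followed its label. Spots carry no gene names, so names came from a match to the log2 table deposited by the authors, with a scaling not given in the sources used here. Across probes, plainly subtracted log2 values averaged over both spots had a median r of 0.972 with that table per sample, at 0.9 or more in 17 of 24 samples and at 0.522 in the lowest, and 23 of 31 probes were matched best by their own spots. With the mean taken over positive spots alone, these were 0.992, 23 of 24, 0.769 and 29 of 31. After 1 shift per sample, 205 of the 530 values given lay within 0.01 of that mean and 352 within 0.1. How the table was made is thus not fully reproduced. All gene names rest on this match, and the order of the spots was found from the same values, so it is no independent check. The table codes missing values as 10000, which was the case for 132 of 480 panel values.

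Background was corrected by normexp with an offset of 50. The log2 values of the 2 spots of a probe were averaged, and the panel median of the sample was subtracted. Fits used limma 3.58.1 in R 4.3.3 on the 24 samples, with age and dye as terms and a threshold of 0.05. Permutation tests (100000 resamples) and Fisher's exact tests used Python 3.11.15 with scipy 1.17.1. Full statistics go to genes with an unadjusted p under 0.05 and to the 5 with the smallest p. The members, lists and tests were chosen with earlier results of these data known. The fits were tested on simulated data, drawn as normal values without a background floor, dye effect or slide effect. Those data therefore do not bear on how the fits treat dim signals. Alternatives covered background correction, centring, dye, slide, position on the slide, the authors' values and each sample left out. No label says that equal sample numbers pair the samples. Same-numbered samples deviated together, at r over 0.1, in 7 of 12 pairs, and r ran from -0.08 to 0.39. These values do not decide whether the numbers pair samples.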

Additional observations from a re-analysis of the deposited data

Results flagged for a closer look

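Signal in the channel that held no label was a measurement outside the comparisons of age. It exceeded the local background by 2 SD for OBR in 12 of the 24 samples, for CPT-1 in 11, for the probe Gapdh4 in 9, for Pyr-kin in 7 and for H-FABP in 5. The corn and Blank probes did so in 0 of 24 samples, and a count of 0 allows up to 3. For OBR this held in the Cy3 channel of 8 of 12 Cy5-labelled samples, and with the Cy3 label OBR was above background in 8 of 12. For CPT-1 it held in the Cy3 channel of 8 of 12 Cy5-labelled samples, against 8 of 12 with the Cy3 label and 0 of 12 with the Cy5 label. Pyr-kin, by contrast, was above background in 12 of 12 Cy3-labelled samples and in the Cy3 channel of 3 of 12 samples without that label. In the Cy5 channel of the 12 Cy3-labelled samples the count was 4 each for OBR, Pyr-kin and H-FABP, 3 for CPT-1 and 2 for Gapdh4. With the Cy5 label the counts were 5 of 12 for OBR, 8 for Pyr-kin, 5 for H-FABP, 0 for CPT-1 and 4 for Gapdh4.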

How the results depend on the processing

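The count of genes that passed limma was 0 as reported and under 20 of the 21 alternatives other than leaving out samples, including 1 added after seeing the data. Among the 20, plain subtraction and the deposited series values gave identical results, so they amount to 1 alternative. The exception to the count of 0 was the fit with the sample number as a replicate block. It called 2 genes, OBR at 1.17 and G-S-T, each with an adjusted p of 0.0186. In that fit limma gave OBR, G-S-T, GHR, Spot14a and ACC the same SE of 0.37, against 0.58 for OBR as reported. That SE is thus not the precision of OBR alone. The SE as reported differed between genes, but limma had moderated its variance over the 20 genes too. Same-numbered samples carry opposite dyes, and no label says that they share an animal. With 1 sample left out in turn the count ran from 0 to 1, and it was 1 without sample 7 of 10 weeks, where the adjusted p of G-S-T was 0.00582. In these fits GHR lay between 0.69 and 1.03, Spot14a between 0.71 and 1.01, and OBR between 0.94 and 1.49. With the mean of positive spots they were 1.38, 1.25 and 1.96, and the values without background correction stand in the results. In the authors' log2 values without centring GHR was -0.86, Spot14a -0.33 and OBR -0.19, and the median gene stood at -0.94. The cause was not tested. With these values centred the median was 0.23, and ACC, with an adjusted p of 0.931, lay on the other side of 0. Over all these alternatives 19 of the 20 genes changed sign at least once, all but G-S-T, and 5 did so with 1 sample left out (Spot14b, L-FABP, H-FABP, AMPKg3 and IGF-1), while quantile normalization moved the median to -0.15. The spread test called 1 gene in the authors' values, AMPKg2, for a cause not tested. The remaining counts, for dye, samples above background, the unlabelled channel and housekeeping genes, were 0 under each alternative run. Signal over background limits all levels, since 8 genes were in no 12-week sample above background.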
